A study of Mus musculus with 9 samples.

Results

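Chromatin accessibility around 36 genes of endothelium and endocardium was examined in the cardiogenic region of wild-type mouse embryos. The genes were chosen by name, and every accessible region that the deposited list assigned to 1 of these symbols was taken as a member. In total, 39 of the 17164 distinct regions were assigned to these genes. They belonged to 19 of the 36 genes, and the other 17 genes had no assigned region. The study asked how loss of Isl1 or Brg1 changes chromatin opening during heart development. ATAC-Seq, in which the Tn5 transposase places sequencing adapters into open DNA, was performed on dissected pharyngeal mesoderm and hearts at embryonic day 8.75 (6 somites). The 9 libraries comprised 3 wild-type controls, 3 from Isl1-/- embryos, and 3 from Isl1Cre+/- / Brg1fl/fl embryos, in which Cre driven from the Isl1 locus removes Brg1 in Isl1-expressing cells and their descendants. The values used here were a single list of regions common to the 3 wild-type libraries, in mm9 coordinates. It holds positions, an assigned gene and the distance from the region center to the transcription start site (TSS) of that gene. The mutant libraries were not analyzed here, and no value has a replicate error or a known sequencing depth.

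Endothelial cells line blood vessels, and endocardial cells form the inner lining of the heart tube. VEGF ligands act through the receptor tyrosine kinases Kdr, Flt1 and Flt4 to specify and expand these cells. The angiopoietin Angpt1 acts through Tek to stabilize vessels. ETS transcription factors, including Etv2, Fli1 and Erg, bind DNA with a GGAA core and drive much of the endothelial gene program. In the dissected tissue, endothelium and endocardium lie next to cardiomyocytes, pharyngeal mesoderm, endoderm and neural crest. In such a mixture, chromatin open in few cells and chromatin weakly open in many cells cannot be told apart. The list carries no expression values, so whether a gene was transcribed in these samples was not measured.

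The share of these genes with any region was close to that of all coding genes, and the share with a region at the assigned TSS was lower. A region was assigned to 19 of 36 genes (52.8%, 95% Wilson interval 37.0 to 68.0%), compared with 49.3% of 21031 coding genes. A region centered within 1 kb of the assigned TSS was found for 8 of 36 (22.2%, interval 11.7 to 38.1%), compared with 40.6% of coding genes. This gap depended on the starts used. With a region midpoint within 1 kb of any GENCODE start, the share was 11 of 36 (30.6%, interval 18 to 46.9%), and the interval held the 44.4% of coding genes. Of the 11, Gja5 counted only through a start beside Gpr89. Without that start the share was 10 of 36 (27.8%, interval 15.9 to 44.0%), and the interval ended just below 44.4%. Conversely, 11 of 36 genes (30.6%) had only regions further than 1 kb from the TSS, compared with 8.66% of coding genes, and 11 genes had at least 2 regions, compared with 12.9%. Among the 39 regions, 31 (79.5%) lay over 1 kb from the TSS, compared with 47.1% of all regions. The 31 regions and the 11 genes with only further regions also depended on the starts used. Of the 31, 2 lay within 1 kb of another annotated start, 1 each at Esam and Vwf. Intervals cover counting error only. These counts describe a list of named genes and were not tested, since the genes were chosen with earlier results of these data known.

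**Figure D1:**
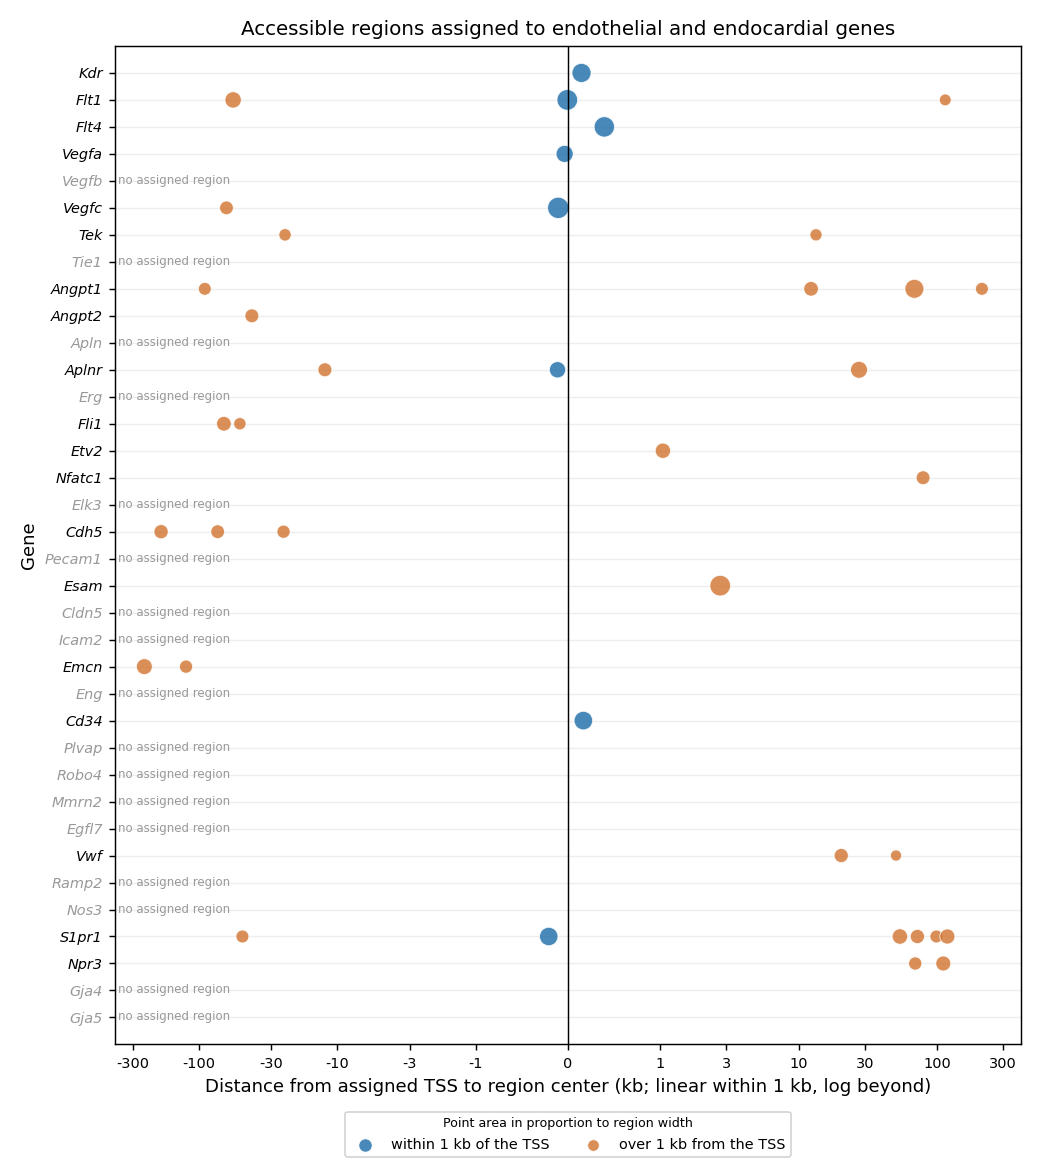
Each point is 1 accessible region of a wild-type control list, placed by the distance in kb of its center from the assigned TSS (negative upstream; linear within 1 kb, logarithmic beyond), with 1 row for each of 36 genes and point area in proportion to width. The 8 regions within 1 kb of a TSS belong to 8 genes, 31 regions lie further away, and 17 genes have no assigned region.

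All 3 VEGF receptor genes had a region at the promoter. At Kdr, which encodes the main receptor for VEGF-A, a region of 1568 bp was centered 147 bp downstream of the TSS (chr5:76373523-76375090), and no other region was assigned. At Flt1, a receptor that also acts as a VEGF trap, the promoter region was 1825 bp wide and centered 7 bp upstream of the TSS (chr5:148536659-148538483). Flt1 had 2 further regions, 1 of 1143 bp at 56477 bp upstream in intergenic DNA and 1 of 598 bp at 114426 bp downstream, in an intron of the gene. The intronic region lay 3680 bp downstream of another annotated Flt1 start. At Flt4, the receptor for VEGF-C that later marks lymphatic endothelium, a single region of 1781 bp was centered 394 bp downstream of the TSS (chr11:49422685-49424465). The promoter regions of Kdr, Flt1 and Flt4 were each wider than the median of 1294 bp for all 9083 regions within 1 kb of a TSS.

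Of the 3 VEGF ligand genes, Vegfa and Vegfc had a promoter region and Vegfb had no region. The Vegfa region was 1261 bp wide, 36 bp upstream of the TSS (chr17:46168732-46169992). The Vegfc region was 1944 bp wide, the widest of the 39, and was centered 105 bp upstream of the TSS (chr8:55161810-55163753). A second Vegfc region of 807 bp lay 63071 bp upstream. For Vegfb, the nearest region to any annotated start was centered 5059 bp upstream and was assigned to Dnajc4, at a distance of -438 bp from its TSS (negative upstream). To show what the distant regions contained, the 300 bases at the center of the upstream regions of Flt1 and Vegfc are given from the plus strand of NCBIM37, the same build as mm9. Capitals mark matches, on either strand, to the 6-base motifs searched below. The Flt1 window (chr5:148593891-148594190) held 1 match to the TEAD motif GGAATG, and the Vegfc window (chr8:55099665-55099964) held 1 match each to the GATA motif AGATAA, the forkhead motif TGTTTA and the SOX motif ACAATG.
Flt1 upstream: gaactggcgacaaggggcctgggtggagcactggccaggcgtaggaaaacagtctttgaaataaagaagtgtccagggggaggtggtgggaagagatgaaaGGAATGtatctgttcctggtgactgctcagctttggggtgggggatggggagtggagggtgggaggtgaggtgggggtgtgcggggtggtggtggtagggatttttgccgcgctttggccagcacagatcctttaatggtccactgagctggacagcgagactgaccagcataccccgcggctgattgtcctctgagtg
Vegfc upstream: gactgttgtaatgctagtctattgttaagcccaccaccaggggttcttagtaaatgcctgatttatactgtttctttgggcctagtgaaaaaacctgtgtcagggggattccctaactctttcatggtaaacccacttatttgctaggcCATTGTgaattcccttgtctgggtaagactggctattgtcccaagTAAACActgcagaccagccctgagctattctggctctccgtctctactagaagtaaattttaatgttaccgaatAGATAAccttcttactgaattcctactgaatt

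The Tie receptors and their ligands had distant regions and none at a promoter. At Tek, which encodes the angiopoietin receptor Tie2, 1 region of 657 bp lay 23811 bp upstream (chr4:94381841-94382497) and 1 of 635 bp lay 13334 bp downstream, in an intron (chr4:94418997-94419631). Both were narrow, wider than 9.66% and 7.80% respectively of the regions beyond 10 kb from a TSS. Tie1, the orphan relative of Tek, had no assigned region, and the nearest lay 52282 bp from a start, at the promoter of Cdc20. Angpt1, which encodes the agonist of Tie2, had 4 regions whose centers spanned 300999 bp. Of these, 3 lay in introns at 12283, 68513 and 210571 bp downstream of the TSS and 1 was intergenic at 90428 bp upstream. The region at 68513 bp was 1542 bp wide and exceeded 93.8% of regions in its distance class, while the others were between 707 and 914 bp. Angpt2, whose product competes with Angpt1 for Tie2, had 1 region of 824 bp at 41347 bp upstream, inside an intron of Mcph1. The centers of the Tek regions are given in the same way. The upstream window (chr4:94382019-94382318) held 1 match to the ETS motif AGGAAG, and the intronic window (chr4:94419164-94419463) held 1 match to the SOX motif.
Tek upstream: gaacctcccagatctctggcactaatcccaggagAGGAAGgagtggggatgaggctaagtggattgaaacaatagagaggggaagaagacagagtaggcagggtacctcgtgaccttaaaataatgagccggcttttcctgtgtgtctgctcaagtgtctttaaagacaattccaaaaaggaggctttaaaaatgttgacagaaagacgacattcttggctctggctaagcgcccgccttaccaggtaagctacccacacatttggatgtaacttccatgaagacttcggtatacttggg
Tek intron: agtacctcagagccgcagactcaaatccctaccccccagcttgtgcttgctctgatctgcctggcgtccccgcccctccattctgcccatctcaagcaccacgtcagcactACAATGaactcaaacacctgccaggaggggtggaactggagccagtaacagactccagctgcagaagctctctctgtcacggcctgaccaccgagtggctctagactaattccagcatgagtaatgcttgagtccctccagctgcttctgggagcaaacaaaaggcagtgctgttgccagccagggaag

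Among the ETS factor genes, Fli1 and Etv2 had regions, and Erg and Elk3 had none. At Fli1, regions of 654 and 924 bp lay 50486 and 65862 bp upstream (chr9:32399197-32399850 and chr9:32414438-32415361). These lie in the interval between Fli1 and its relative Ets1. In the GENCODE annotation an Ets1 start was nearer to both, at -44283 and -28907 bp (negative upstream), although the list assigned them to Fli1. The centers of both are shown because they were the only regions assigned to Fli1. The window of the nearer region (chr9:32399373-32399672) held 1 match to the GATA motif and 1 to the Isl1 motif CTAATG, and that of the further region (chr9:32414749-32415048) held 1 match to AGGAAG in reverse orientation.
Fli1 nearer region: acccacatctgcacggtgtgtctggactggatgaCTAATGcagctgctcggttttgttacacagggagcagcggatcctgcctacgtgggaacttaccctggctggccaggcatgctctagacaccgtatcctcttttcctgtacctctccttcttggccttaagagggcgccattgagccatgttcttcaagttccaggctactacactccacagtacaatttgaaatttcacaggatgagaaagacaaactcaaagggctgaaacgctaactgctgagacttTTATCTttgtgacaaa
Fli1 further region: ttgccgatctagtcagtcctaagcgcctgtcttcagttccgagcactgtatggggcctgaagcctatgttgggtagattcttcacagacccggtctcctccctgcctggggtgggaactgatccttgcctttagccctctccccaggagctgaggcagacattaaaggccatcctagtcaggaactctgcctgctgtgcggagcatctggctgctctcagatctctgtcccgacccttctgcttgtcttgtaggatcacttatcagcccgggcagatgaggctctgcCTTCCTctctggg

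At Etv2, a short-lived factor at the top of endothelial specification, a region of 1009 bp (chr7:31419322-31420330) was centered 1045 bp downstream of the assigned TSS, just outside the 1 kb limit. Its midpoint fell in a coding exon. With a limit of 2 kb, Etv2 joined the genes with a promoter region and their number rose from 8 to 9. Erg lay far from any region in the list, the nearest being 115655 bp upstream of a start, at the promoter of Ets2. Elk3 lay further still, at 150026 bp from the promoter region of Cdk17, the largest such distance among the 36 genes.

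Aplnr, the apelin receptor, had 3 regions whose centers spanned 39538 bp, and Apln, its ligand, had none. The Aplnr promoter region was 1145 bp wide and centered 113 bp upstream of the TSS (chr2:84975832-84976976). It was flanked by 1 region of 833 bp at 12269 bp upstream and 1 of 1232 bp at 27269 bp downstream, the latter in an intron of Lrrc55. The nearest region to Apln was at the promoter of Ocrl, 122276 bp away on chromosome X.

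Genes for endothelial junction and adhesion proteins had no region within 1 kb of the assigned TSS. Cdh5, which encodes VE-cadherin, had 3 regions, all intergenic and upstream, of 744 bp at 24420 bp, 811 bp at 73008 bp and 868 bp at 187100 bp from the TSS. A further 3 regions, at -351239, -477964 and -518306 bp from a Cdh5 start, were also nearest to Cdh5 among coding starts but were assigned to the noncoding transcript 4933400L20Rik. Esam had 1 region of 1822 bp (chr9:37337475-37339296) at 2711 bp downstream of the assigned TSS. Its midpoint lay 124 bp upstream of another annotated start within Esam, so by that annotation it was a promoter region. Pecam1 (CD31), Cldn5 and Icam2 had no region, and the nearest lay 28953, 35181 and 99707 bp from a start of the gene. In each of the 3 cases the nearest region was at the promoter of another gene, namely Polg2, Cdc45 and Ern1.

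Of 8 genes for other surface and matrix proteins, 3 had a region. Cd34, which encodes a sialomucin of endothelial and hematopoietic progenitors, had 1 region of 1480 bp centered 167 bp downstream of the TSS (chr1:196764443-196765922). A further 2 regions were nearest to Cd34 among coding starts, at -59103 and 37737 bp, but were assigned to the noncoding Mir3962 and Gm16897. Emcn, which encodes endomucin, had 2 intergenic regions at 123548 and 247230 bp upstream. The further one was nearer to a start of Gm10955 in GENCODE, at 141573 bp. Vwf, which encodes von Willebrand factor, had 2 regions inside the gene, of 860 bp at 20288 bp and 534 bp at 50451 bp downstream of the TSS. The latter was the narrowest of the 39, had its midpoint in a coding exon and was centered 151 bp upstream of an internal annotated start. The region of 860 bp lay 6985 bp downstream of another annotated Vwf start. No region was assigned to Eng, Plvap, Robo4, Mmrn2 or Egfl7. The nearest region was 11921 bp from a start of Mmrn2, 15135 bp from Eng, 17398 bp from Robo4, 31077 bp from Plvap and 54940 bp from Egfl7.

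S1pr1 had the most regions of the 36 genes. It encodes a receptor for sphingosine 1-phosphate that stabilizes new vessels. Its promoter region was 1457 bp wide and centered 208 bp upstream of the TSS (chr3:115417453-115418909). A region of 716 bp lay 48389 bp upstream, and regions of 1023, 866, 716 and 978 bp lay 53821, 71992, 98770 and 118518 bp downstream of the TSS. All 5 distant regions were intergenic, and the 6 centers spanned 166907 bp. Npr3, which encodes the clearance receptor for natriuretic peptides and marks endocardium, had 2 intergenic regions of 749 and 961 bp, at 69454 and 110769 bp downstream and thus beyond the 3′ end of the gene, and none at its promoter. No region was assigned to Ramp2 or Nos3, and the nearest lay 74344 and 12713 bp from a start. A region of 1183 bp lay inside Nos3 (chr5:23888799-23889981) but was assigned to the neighbor Atg9b. The connexin genes Gja4 and Gja5 had none. In GENCODE, the longest Gja5 transcript starts beside Gpr89, so that a region of 837 bp at the Gpr89 promoter (chr3:96708748-96709584) also lay 550 bp from a Gja5 start.

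Nfatc1, a factor whose expression marks the endocardium, had 1 region of 819 bp. It lay in an intron 79141 bp downstream of the TSS (chr18:80825362-80826180), and none lay within 1 kb of the TSS. Among all 5 transcription factor genes, 3 had a region and 0 had 1 within 1 kb.

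For the 17 genes without a region, the median distance from a start to the nearest region was 35181 bp, compared with 41012 bp for 12637 coding genes whose symbol was not in the list. In 15 of the 17 this distance was over 10 kb, and in 8 it was over 50 kb. In 14 of the 17 the nearest region lay within 1 kb of the TSS of the gene it was assigned to, as did 52.9% of all regions in the list. The counts of 15, 8 and 14 were not made for the other coding genes, so they are not read as a trait of the 17. Assigning regions by position gave no larger number of genes. With the nearest coding start in GENCODE, 18 of 36 genes had a region, and counting any region that overlapped the gene itself gave 16.

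Promoters of mammalian genes fall into CpG-rich ones, which are often open in many cell types, and CpG-poor ones, which tend to be tissue-specific. The CpG frequency within 500 bp of a start, taken as the highest over the annotated starts of a gene, was therefore set beside accessibility. Its median was 3.95 CpG per 100 bp for the 36 genes and 4.70 for 22225 coding genes. It was 6.89 for the coding genes with a region midpoint within 1 kb of an annotated start and 1.80 for the others. By this positional measure 11 of 36 genes had an open start, namely the 8 above with Esam, Vwf and Gja5. Gja5 was counted only through the long transcript that starts beside Gpr89, and the list assigned the region there to Gpr89. Without that start the count was 10 of 36 (27.8%, interval 15.9 to 44.0%), and the interval ended just below the 44.4% of coding genes. Coding genes were divided into 5 classes of rising CpG frequency. In class 1, 1.03% had an open start, and the 1 gene of the list there, Robo4, did not. In class 2 the share was 15.3%, and 2 of 14 genes, Aplnr and Cd34, had one. In class 3 it was 60.7%, and 5 of 9 had one, namely Esam, Flt4, Gja5, S1pr1 and Vwf, or 4 of 9 without the Gja5 start beside Gpr89. In class 4 it was 71.2%, and 1 of 6, Kdr, had one. In class 5 it was 75.2%, and 3 of 6 had one, namely Flt1, Vegfa and Vegfc. In classes 4 and 5 together, 4 of 12 genes (33.3%, interval 13.8 to 60.9%) had an open start, compared with 73.2% of coding genes. The 8 without one were Apln, Egfl7, Elk3, Fli1, Nfatc1, Npr3, Ramp2 and Vegfb. In classes 1 to 3 the counts were near the share of all coding genes, and in classes 4 and 5 they were below it. Classes 4 and 5 held only 6 genes each, and no interval was computed for either alone. Joining them was not part of the plan, which named the 5 classes. The classes depend on taking the highest value over starts. By the mean over starts, Egfl7 fell from 7.69 to 2.89 and Npr3 from 8.39 to 4.95. Vegfa, which had an open start, fell from 11.59 to 4.81. Classes by the mean were not made. The difference between the classes was not tested.

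**Figure D2:**
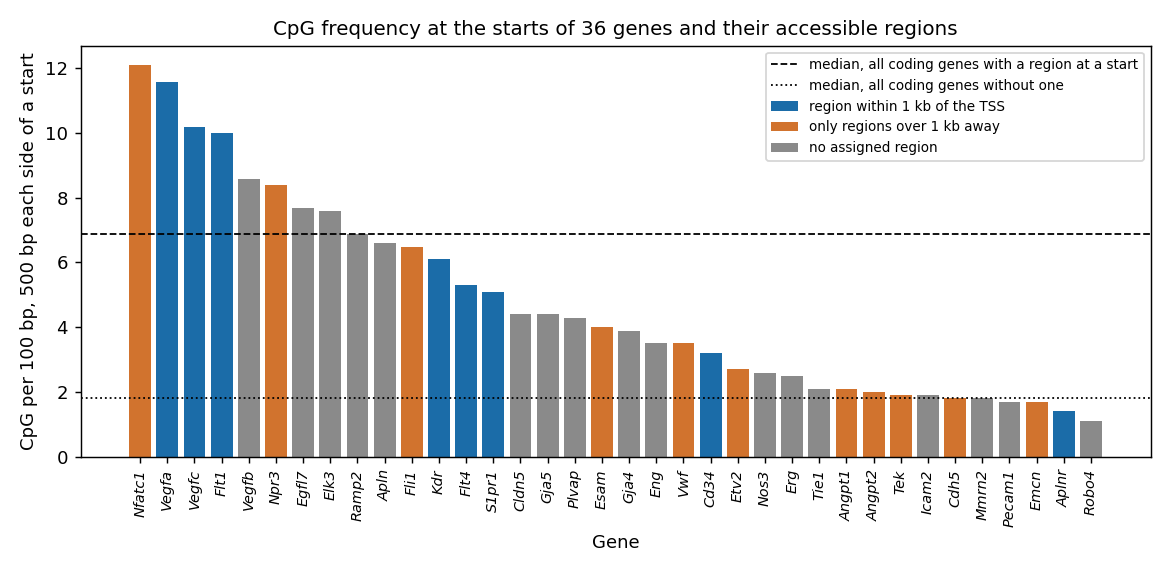
Bars give the CpG frequency (CpG per 100 bp within 500 bp of a start, highest over the annotated starts) of 36 genes, coloured by whether the list assigned a region within 1 kb of the TSS, only further regions, or none, and dashed and dotted lines give the medians of all coding genes with (6.89) and without (1.80) a region at a start. Genes without a promoter region occur along the whole range, including Nfatc1 at the upper end, while Aplnr has one at 1.40.

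The sequence before a start is printed for 3 genes, Kdr and Elk3 of class 4 and Tek of class 2. The printed stretches are shorter than the windows used for the classes. RefSeq promoter sequences (GRCm38.p6) were at hand for 21 of the 36 genes, and each of the 3 matched its chromosome in NCBIM37 exactly, at 1 place. Printed are 190 bases ending 60 bases short of the RefSeq start, in the direction of transcription, with CpG dinucleotides in capitals. The Kdr stretch (chr5:76374541-76374730), inside its promoter region, held 11 CpG. The Elk3 stretch (chr10:92773965-92774154), far from any region, held 12. The Tek stretch (chr4:94405730-94405919), between its 2 distant regions and in neither, held 2. The median over 27025 promoters was 4.
Kdr: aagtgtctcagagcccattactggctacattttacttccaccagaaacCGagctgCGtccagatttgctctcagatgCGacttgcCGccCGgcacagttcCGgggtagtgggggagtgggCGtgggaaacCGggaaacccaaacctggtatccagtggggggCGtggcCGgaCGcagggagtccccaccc
Elk3: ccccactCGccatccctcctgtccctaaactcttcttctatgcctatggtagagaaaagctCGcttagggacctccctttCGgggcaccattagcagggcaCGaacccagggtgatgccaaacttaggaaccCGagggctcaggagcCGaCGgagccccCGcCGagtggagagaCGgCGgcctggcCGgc
Tek: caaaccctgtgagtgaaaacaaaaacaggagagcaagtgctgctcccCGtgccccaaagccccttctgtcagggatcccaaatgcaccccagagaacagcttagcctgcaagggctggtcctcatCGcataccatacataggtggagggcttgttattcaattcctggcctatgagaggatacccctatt

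The 39 regions differed in width with distance, as did the list as a whole. The 8 promoter regions had a median width of 1524 bp (range 1145 to 1944), compared with 1294 bp for all regions within 1 kb, and 6 of the 8 exceeded that value. The 31 distant regions had a median of 824 bp (range 534 to 1822, 95% interval of the median 744 to 924), compared with 950 bp for 8081 regions over 1 kb from a TSS, and 22 of the 31 were narrower than that. The 31 come from 15 genes and are not independent, and width also depends on read depth, which is unknown. Their GC content was close to that of all distant regions, with medians of 47.1% and 47.5%, and so was their CpG frequency, at 1.27 and 1.35 per 100 bp. They lay at a median of 63071 bp from the TSS, compared with 49275 bp, and 7 of 31 (22.6%) were beyond 100 kb, compared with 31.6%. Upstream positions made up 45.2% and 45.5%. The median gap to the nearest other region was 40460 bp, compared with 42726.5 bp. Of the 31 midpoints, 10 lay inside the gene to which the region was assigned. The same share was not computed for all distant regions, so this count has no background.

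**Figure D3:**
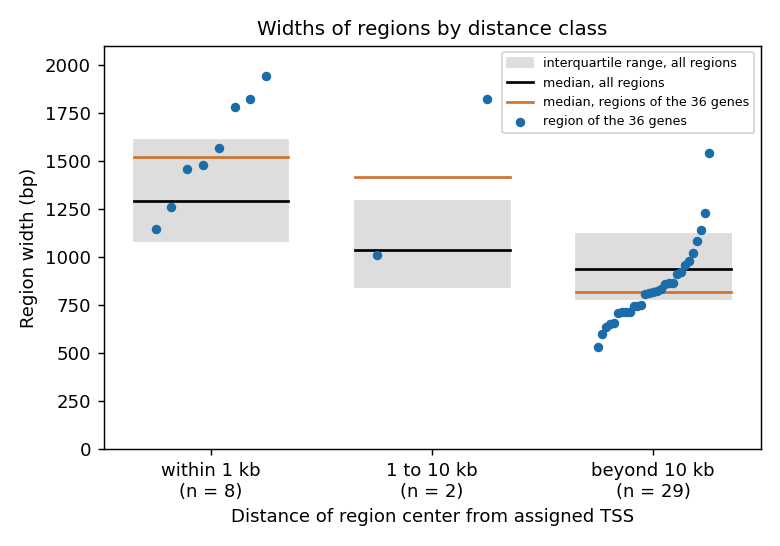
Points give the width in bp of each of the 39 regions by distance class, with lines for the median of these regions and of all regions in the class and a grey box for the interquartile range of all. Within 1 kb, 6 of 8 points lie above the black line at 1294 bp, and beyond 10 kb, 7 of 29 lie above the black line at 937 bp.

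Short motifs were counted in the 300 bp at the center of each region, on both strands, beside the share of all regions with the same match. A match is a description of sequence and not a bound site. Among the 31 distant regions, the ETS motif AGGAAG occurred in 17 (54.8%, interval 37.8 to 70.8%), compared with 36.7% of all distant regions. They were 3 regions each of Angpt1 and S1pr1, both regions of Emcn and of Vwf, and 1 each of Tek, Aplnr, Fli1, Nfatc1, Cdh5, Esam and Npr3. The other ETS form searched, CGGAAG, occurred in 1 (3.23%), compared with 8.69%. With either form, the shares were 54.8% (interval 37.8 to 70.8%) and 42.2%, and the interval held the latter. Among the 17, the Esam region and 1 Vwf region lay within 1 kb of another annotated start. The count without them was not made. The GATA motif AGATAA occurred in 16.1% and 14.5%, the forkhead motif TGTTTA in 19.4% and 18.6%, the SOX motif ACAATG in 22.6% and 18.75%, the Isl1 motif CTAATG in 12.9% and 11.2%, and the TEAD motif GGAATG in 25.8% and 22.2%. The interval of each of these 5 held the share of all distant regions, and the lower bound for AGGAAG was just above it. AGGAAG was 1 of 7 motifs searched, and the regions of 1 gene are not independent, so this difference was not taken further. In windows of 600 bp it narrowed, with AGGAAG in 64.5% (interval 47.0 to 78.9%) of these regions and in 59.1% of all distant regions. Among the 8 promoter regions AGGAAG occurred in 3, at Flt1, Flt4 and Aplnr, and CGGAAG in 0, compared with 28.6% and 30.1% of all regions within 1 kb.

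**Figure D4:**
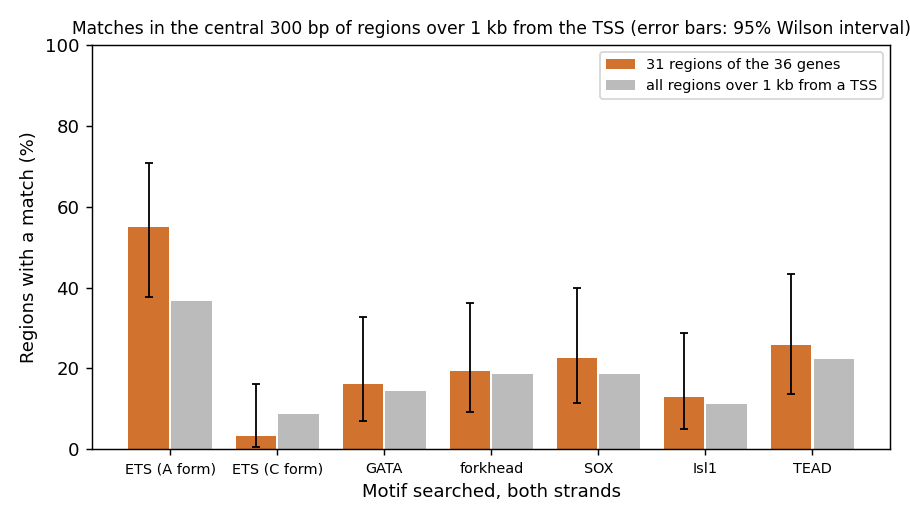
Orange bars give the percentage of the 31 regions of the 36 genes over 1 kb from the TSS with a motif match in the central 300 bp (error bars, 95% Wilson interval), and grey bars the same for 8081 regions. ETS (A form) is AGGAAG and ETS (C form) is CGGAAG. The A form is at 54.8% and 36.7%, while the grey bars for the other motifs lie within the error bars.

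Other endothelial genes and markers of neighboring cell types were counted in the same way. Of 36 further endothelial genes, 23 (63.9%, interval 47.6 to 77.5%) had a region and 15 (41.7%, interval 27.1 to 57.8%) had one within 1 kb, with 55 regions in all. Those with a region included the SOX factor genes Sox17 and Sox18, the ETS factor genes Ets1 and Ets2, the VEGF co-receptor genes Nrp1 and Nrp2, and the arterial and venous pair Efnb2 and Ephb4. Those without a region were Sox7, Gata2, Hhex, Notch1, Notch4, Dll4, Pgf, Foxc2, Lyve1, Stab1, Gpr116, Ctla2a and Ece1. The median CpG frequency at the starts of this list was 6.24 per 100 bp. Cardiac contractile genes had a region at 5 of 21 (23.8%) and a promoter region at 3 (14.3%), with a median CpG frequency of 1.90. Blood genes had a region at 5 of 16 (31.3%) and a promoter region at 1 (6.25%). Epithelial and endodermal genes had a region at 4 of 13 (30.8%) and a promoter region at 0, which allows a share of up to 22.8%. Neural crest genes had a region at 8 of 13 (61.5%) and a promoter region at 6 (46.2%). The intervals of these short lists are wide, and differences between the lists were not tested.

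**Figure D5:**
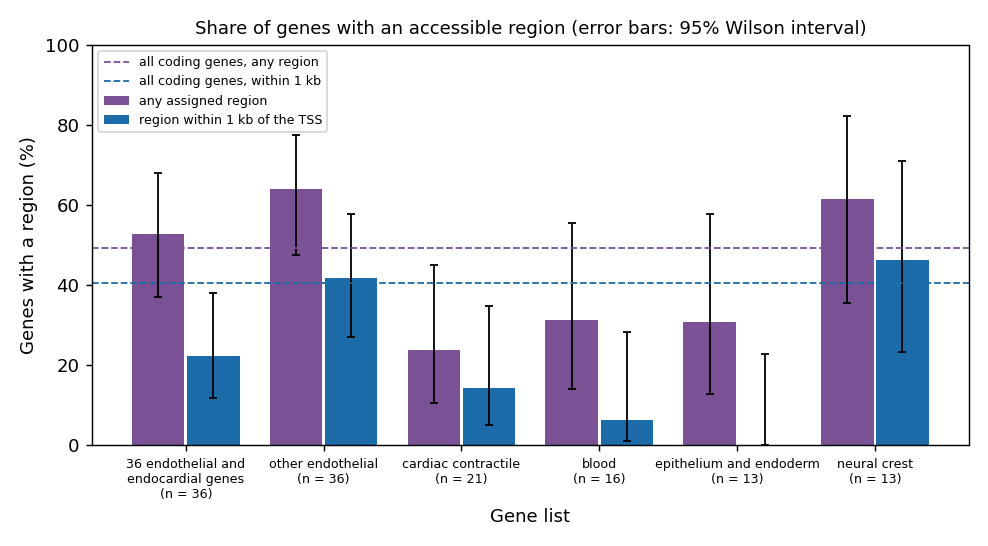
Bars give the percentage of genes with any assigned region and with a region within 1 kb of the TSS in 6 gene lists (number of genes under each, error bars 95% Wilson interval), and dashed lines the values for all coding genes (49.3% and 40.6%). The 36 genes sit at 52.8% and 22.2%, the cardiac contractile genes at 23.8% and 14.3%.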

How the data were processed

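The authors prepared 9 ATAC-Seq libraries, 3 per genotype. Per the methods of the study, paired reads were mapped to mm9 with bowtie2, filtered with samtools, cleared of duplicates with Picard 1.136, and used for peak calling in each library with MACS14 without a model and with a fixed shift. ENCODE blacklist regions were discarded, and wild-type replicates were intersected with bedtools 2.15 (minimum shared length 1 bp). The deposited columns of this list are other values than read counts, namely start and end in bp and distance to the TSS in bp, with 0 columns left unmapped. No Tn5 offset is stated. A region had to be called in the replicates, so a gene without a region may still be open. The tool that assigned genes is not given for these regions in the sources used here.

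Of 17432 rows, 17164 were distinct regions. Positions were taken as 1-based and width as end minus start plus 1. Genes in the list were matched to the RefSeq table (GRCm38.p6, names only) by accession (11161), symbol (359) or synonym (15), and 6 of 11541 had no match. Gene structure came from GENCODE on NCBIM37. For 37 of the 39 regions the start implied by the deposited distance was within 100 bp of a GENCODE start of the same gene. No statistical test was run. Shares were given with Wilson intervals, and medians with order-statistic intervals. Members, lists and alternatives were chosen with earlier results of these data known. All 36 genes were named, and every region of each was given. The region nearest to Gja4 is not reported here. The rule for sequences allowed at most 8, from distant regions of the VEGF, Tie and transcription factor groups and promoters of genes without a region. Which 7 of these to print was chosen after values were seen, and the Kdr and Tek promoters, outside the rule, were added then. Motif counts, signed distances and the interval of the median were checked on simulated data, and the other steps were not. Python 3.11.15, numpy 2.4.6, pandas 2.3.3, scipy 1.17.1, statsmodels 0.14.6 and matplotlib 3.10.9 were used.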

Additional observations from a re-analysis of the deposited data

How the results depend on the processing

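No paired analysis was possible because only a merged wild-type list was used, without values for single libraries, and for the same reason no library could be left out. Of 33 recomputed values, 27 stayed within the interval of the reported value or, for a count of regions, within 1.5 times of it. Some of these could not differ. All 8 promoter regions lay within 394 bp of the TSS, with 1 per gene. A limit of 500 bp or the widest region of each gene therefore gave the same 8 regions. Restriction to widths of 1123 bp (the median) or more left 12 regions in place of 39 and 10 genes with a region in place of 19, while the 8 genes with a promoter region stayed at 8. This follows from the narrow distant regions. Counting any region within 10 kb of a start gave 13 genes with a region. Matching coding genes of GENCODE by symbol gave 43.1% with a region in place of 49.3%, and the cause was not tested. A window of 600 bp, which holds more sequence, raised the share of the 39 regions with AGGAAG from 51.3% to 66.7% (all regions, 32.45% to 54.0%) and with TGTTTA from 15.4% to 35.9% (all regions, 11.5% to 22.1%). The number of genes with a promoter region was between 8 and 11 under all alternatives tried, the highest with a midpoint within 1 kb of any GENCODE start. That alternative, and the same without the Gja5 start beside Gpr89, which gave 10, were chosen after seeing the data. Since depth is unknown, how far it limits widths and missing regions cannot be given.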
